A study of Mus musculus with 6 samples.

Results

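The genes of the basic leucine zipper (bZIP) transcription factors were examined for enrichment of Flag-tagged OTUD3 in mouse epididymal adipose tissue. The set was a list of 48 genes given by name, from the JUN, FOS, ATF, CREB, C/EBP, MAF, NFE2, BACH and PAR groups, among 21887 protein-coding genes of the mouse GRCm38.p6 table, and all 48 were found in it. The rule names the genes and uses no measured value, but the list was drawn up with earlier results of these peak lists known. OTUD3 is a deubiquitinase, an enzyme that takes ubiquitin off other proteins, and the series title places it with transcription factors.

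The tested libraries were 3 immunoprecipitations with an anti-Flag antibody, numbered 1, 3 and 4, each with its own peak list. All came from mice given AAV2-Otud3-Flag, an adeno-associated virus, into the peritoneal cavity, and fat was collected at week 4. The 3 input libraries, numbered likewise and from mice under the same treatment, were not analysed here. The labels name the sample both as adipocyte and as whole fat tissue, and give neither strain, age, sex nor the promoter that drives the transgene. Separate animals are not named for the libraries, so the spread between lists may be technical. The read layout is stated both as single-end and as paired. No library of mice without the Flag tag was analysed here. A peak list holds no expression values, so the tissue label could not be checked against marker genes.

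bZIP proteins bind DNA as dimers through a basic region followed by a leucine zipper, and the choice of partner sets which sequence is bound. JUN and FOS proteins form AP-1, which answers growth and stress signals, and CREB proteins answer cyclic AMP. ATF4, ATF6, XBP1 and DDIT3 act in the stress response of the endoplasmic reticulum, and NRF proteins with small MAF partners act in defence against oxidants. In fat, C/EBPβ and C/EBPδ act early and C/EBPα late in the differentiation of adipocytes. These are properties of the proteins, whereas the peaks below are places on the genes that encode them.

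The evidence behind each peak was thin. The lists held 11871, 6531 and 13496 distinct intervals in replicates 1, 3 and 4, and a median peak rested on 4, 6 and 5 fragments at its highest point, the summit. The authors' median fold over local background was 3.20, 3.00 and 3.02. A count of 4 fragments has a 95% interval of 1.09 to 10.2 (exact Poisson, counting error only). The lowest background per position was 0.407, 1.17 and 0.839 fragments, so the lists differed in effective depth. Only 40, 26 and 67 intervals had a q of at most 0.05, and none of these lay at a bZIP gene. With so few in the whole lists and 45, 24 and 23 summits at bZIP genes, their absence there says little about these genes.

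The promoters of 4 genes are printed here as examples. Jun and Junb carried peaks of different libraries that overlapped, and Atf3 was 1 of 6 bZIP genes with a peak in every library. Cebpb had the upstream peak whose edge came closest to a promoter window. Maff, with a peak 140 bp from a window, is not printed. Each is the 300 bases from 250 before to 50 after an annotated start, from RefSeq on GRCm38.p6, written 5′ to 3′ on the gene's strand. Capitals mark matches to the motifs named after the sequences.
Jun, chr4:95052173-95052472, minus strand: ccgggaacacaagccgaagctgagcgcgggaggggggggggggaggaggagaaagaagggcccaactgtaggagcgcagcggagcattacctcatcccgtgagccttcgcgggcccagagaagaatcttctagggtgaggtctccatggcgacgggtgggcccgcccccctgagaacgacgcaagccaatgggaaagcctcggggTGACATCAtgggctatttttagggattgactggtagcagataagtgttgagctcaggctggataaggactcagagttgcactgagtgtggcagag
Junb, chr8:84978699-84978998, minus strand: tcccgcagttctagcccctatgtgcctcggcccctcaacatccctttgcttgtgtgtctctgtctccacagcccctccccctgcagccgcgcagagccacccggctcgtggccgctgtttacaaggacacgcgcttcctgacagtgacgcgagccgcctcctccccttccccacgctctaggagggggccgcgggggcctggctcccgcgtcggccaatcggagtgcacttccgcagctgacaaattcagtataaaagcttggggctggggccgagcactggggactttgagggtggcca
Atf3, chr1:191183284-191183583, minus strand: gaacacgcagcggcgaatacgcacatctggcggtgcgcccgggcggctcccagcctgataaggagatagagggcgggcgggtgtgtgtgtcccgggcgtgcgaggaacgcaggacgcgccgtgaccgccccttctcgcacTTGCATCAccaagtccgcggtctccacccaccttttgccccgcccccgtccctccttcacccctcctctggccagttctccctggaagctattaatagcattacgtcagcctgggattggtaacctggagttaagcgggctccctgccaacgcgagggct
Cebpb, chr2:167688665-167688964, plus strand: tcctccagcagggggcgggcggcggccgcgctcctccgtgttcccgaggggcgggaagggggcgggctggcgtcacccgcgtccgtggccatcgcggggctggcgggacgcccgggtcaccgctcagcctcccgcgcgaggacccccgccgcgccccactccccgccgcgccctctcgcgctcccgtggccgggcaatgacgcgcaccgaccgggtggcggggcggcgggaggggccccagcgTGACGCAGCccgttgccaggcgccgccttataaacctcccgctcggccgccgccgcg

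Both strands were searched for 7 motifs, in which N is any base. TGACATCA, the variant of the cyclic AMP element through which JUN dimers act on Jun, was found in the Jun window and in 3.66% of 21263 promoters of protein-coding genes. TTGCATCA, the site of C/EBP and ATF dimers, was in the Atf3 window and in 0.865% of promoters. The antioxidant element TGACNNNGC was in the Cebpb window and in 13% of promoters. The Junb window held none of the 7, which included the AP-1 site TGANTCA, the full cyclic AMP element TGACGTCA, the C/EBP site TTGCNNAA and the PAR site TTANNTAA. TGANTCA and TGACNNNGC can share bases. Among the 50 promoters listed for 38 of the bZIP genes, TGANTCA was in 3 (6%, against 6.99% of all promoters), TGACGTCA in 3 (6%, against 2.23%) and TGACATCA in 2 (4%). TTGCNNAA was in 3 (6%, against 10.2%), TTGCATCA in 2 (4%), TTANNTAA in 2 (4%, against 5.35%) and TGACNNNGC in 7 (14%). With 2 to 7 promoters behind each share, these are descriptions. The bZIP promoters had a median GC content of 64.7%, against 56.3% for all promoters.

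No peak of any library touched one of these 50 windows. Of all 21263 promoters, a peak lay on 0.611%, 0.118% and 0.226% in replicates 1, 3 and 4. The closest approach was in Junb, where a peak ended 32 bp from the window. In Cebpb, a peak lay 84 bp from it on the upstream side. The peaks described below therefore lie beside these sequences and not in them.

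Of the 48 bZIP genes, 35 had a peak nearby in at least 1 library (72.9%, against 44.2% of all protein-coding genes). A gene is called hit when at least 1 summit lies inside it or within 5 kb. Replicate 1 hit 25 of 48 bZIP genes, or 52.1%, against 25.2% of all protein-coding genes. Replicate 3 hit 19, or 39.6%, against 15.8%. Replicate 4 hit 17, or 35.4%, against 23.8%. The mean was 20.3 ± 4.16 genes (SD, n = 3 lists). In every list the share was higher for the bZIP genes than for all genes, and the gap was narrowest in replicate 4. No p-value is given, because the names were picked with earlier results of these lists known and genes are not replicates.

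Longer genes hold more summits, and bZIP genes were short, with a median of 10.8 kb, while the median over all protein-coding genes was 17.2 kb. For each bZIP gene, the share hit was taken among the 500 protein-coding genes nearest to it in length. Summed over the 48, these shares came to 11.4, 6.93 and 10.2 genes in replicates 1, 3 and 4, beside the 25, 19 and 17 observed. The ratios were 2.19, 2.74 and 1.66 (mean 2.20 ± 0.54 SD, n = 3 lists). With genes alike both in length and in the number of genes within 500 kb, a comparison chosen after seeing the data, the ratios were 2.17, 2.78 and 1.72.

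**Figure D1:**
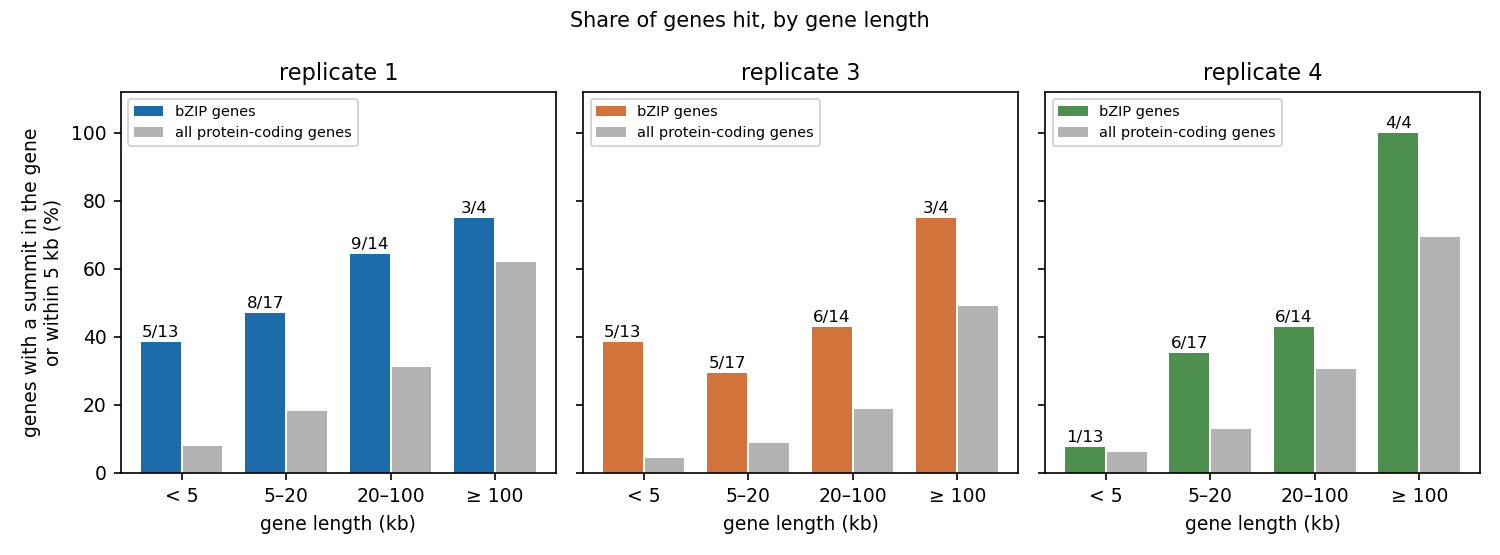
Percentage of genes with a summit in the gene or within 5 kb, by gene length in kb, in each of the 3 anti-Flag libraries, with bZIP genes as coloured bars and all protein-coding genes as grey bars. Numbers over the coloured bars are bZIP genes hit out of those in the class. Among genes under 5 kb the bZIP share was 38.5% in replicates 1 and 3 and 7.69% in replicate 4.

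In each length class and list the share hit was higher for bZIP genes than for all genes, by amounts that varied. Of the 13 bZIP genes under 5 kb, 5 were hit in replicate 1 and 5 in replicate 3, or 38.5% in each, against 8.03% and 4.27% of all genes of that length. In replicate 4 it was 1 of 13, or 7.69%, against 6.04%. Between 5 and 20 kb, 8, 5 and 6 of 17 were hit in replicates 1, 3 and 4 (47.1%, 29.4% and 35.3%, against 18.3%, 8.91% and 12.9%). Between 20 and 100 kb, 9, 6 and 6 of 14 were hit (64.3%, 42.9% and 42.9%, against 31%, 18.9% and 30.6%). The 4 genes of 100 kb or longer, Atf6, Creb3l2, Bach2 and Creb5, were hit in 3, 3 and 4 cases, in a class where 62.1%, 49.2% and 69.5% of all genes were hit.

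The density of summits on the bZIP genes was also set beside that of their own surroundings. Within the genes and 5 kb either side there were 19 summits per Mb in replicate 1, 10.1 in replicate 3 and 9.7 in replicate 4. From 5 to 50 kb away there were 12.5, 6.02 and 9.26 per Mb. The ratio of locus to surroundings was 1.52, 1.68 and 1.05 at bZIP genes, against 0.84, 0.97 and 1.02 over all protein-coding genes. Pooled over the bZIP genes, each with its 5 kb either side, replicates 1 and 3 thus had denser summits than the surroundings. In replicate 4 the pooled densities were alike. Long genes weigh more in the locus values, since the surroundings span the same distance for every gene. These ratios were not matched for gene length. The surroundings of bZIP genes were themselves denser than those of all genes, which had 7.45, 3.59 and 6.24 summits per Mb.

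Gene ends gave small counts in the same direction. A summit within 1 kb of either gene end was present in 5 bZIP genes in replicate 1 (10.4%, against 3.49% of all genes), 4 in replicate 3 (8.33%, against 1.33%) and 2 in replicate 4 (4.17%, against 1.97%). The sums of shares over genes of like length were 1.87, 0.702 and 0.936. In all, 10 genes had such a summit: Jun, Junb, Jund, Atf3 and Mafa in replicate 1, Junb, Cebpb, Maff and Nfe2l2 in replicate 3, and Atf6 and Ddit3 in replicate 4. Junb was the only one of the 10 with an end summit in more than 1 list.

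**Figure D2:**
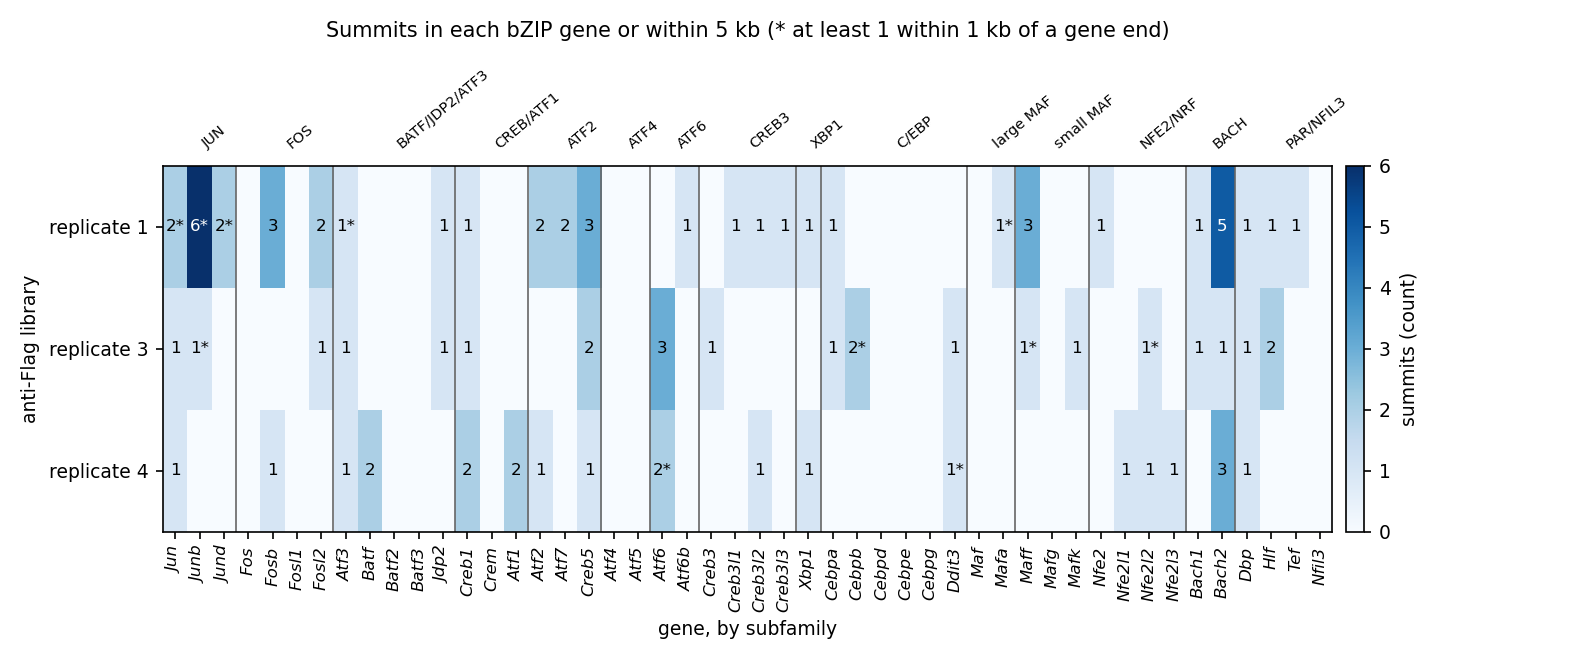
Number of summits in each of the 48 bZIP genes or within 5 kb, with genes along the horizontal axis grouped by subfamily and the 3 anti-Flag libraries down the page. Darker cells hold more summits, empty cells hold none, and an asterisk marks genes with a summit within 1 kb of a gene end. Junb had 6 summits in replicate 1, the highest count in the grid, and 1 in replicate 3.

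JUN genes encode the AP-1 subunits that can dimerise with one another or with FOS, and all 3 were hit in replicate 1. Over the 3 lists, 6 of 9 gene and list pairs were hit, beside 0.706 from genes of like length. Junb had 6 summits in replicate 1, 1 in replicate 3 and 0 in replicate 4. Of the 500 genes nearest to its length of 1.84 kb, 0 had as many as 6 in replicate 1, and the highest count was 4. In replicate 3, 24 of them had at least 1. Jun, the gene of c-Jun, had 2, 1 and 1 summits, and Jund had 2, 0 and 0.

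The peaks of Junb lay along the whole transcription unit and on both sides of it. From upstream to downstream, the 6 summits in replicate 1 were 3325 and 1923 bp before the annotated 5′ end and 257, 1169, 2287 and 2757 bp after it. The highest had a fold of 4.98 from 6 fragments (q = 0.0977) and stood at percentile 99.4 of its list. The others had folds of 2.79 to 4.27 from 3 to 5 fragments. The single peak in replicate 3 had a fold of 3.23 from 9 fragments (q = 0.745), with its summit at 1061 bp. It overlapped the highest peak of replicate 1 by 300 bp, within chr8:84977360-84978110, and the 2 summits were 108 bp apart.

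Jun had the other overlap. A peak of replicate 1, with a fold of 2.53 from 3 fragments (q = 0.992), had its summit 922 bp after the 5′ end. A peak of replicate 4, with a fold of 3.81 from 6 fragments (q = 0.644), had its summit at 1126 bp. These peaks shared 29 bp, within chr4:95050896-95051463. Replicate 1 had another summit at 3830 bp, past the 3′ end, with a fold of 3.50, and replicate 3 had one at 5112 bp with a fold of 2.45 from 5 fragments. In Jund the summits of replicate 1 lay 1759 and 3344 bp after the 5′ end, with folds of 3.90 and 3.79.

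Genes with overlapping peaks of 2 lists were few. They were 2 of 48 bZIP genes (4.17%), Jun and Junb, against 104 of all protein-coding genes (0.475%). None of the 4 peaks had a q below 0.05. The Jun overlap rests on a peak of 3 fragments, whose counting interval runs from 0.619 to 8.77.

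**Figure D3:**
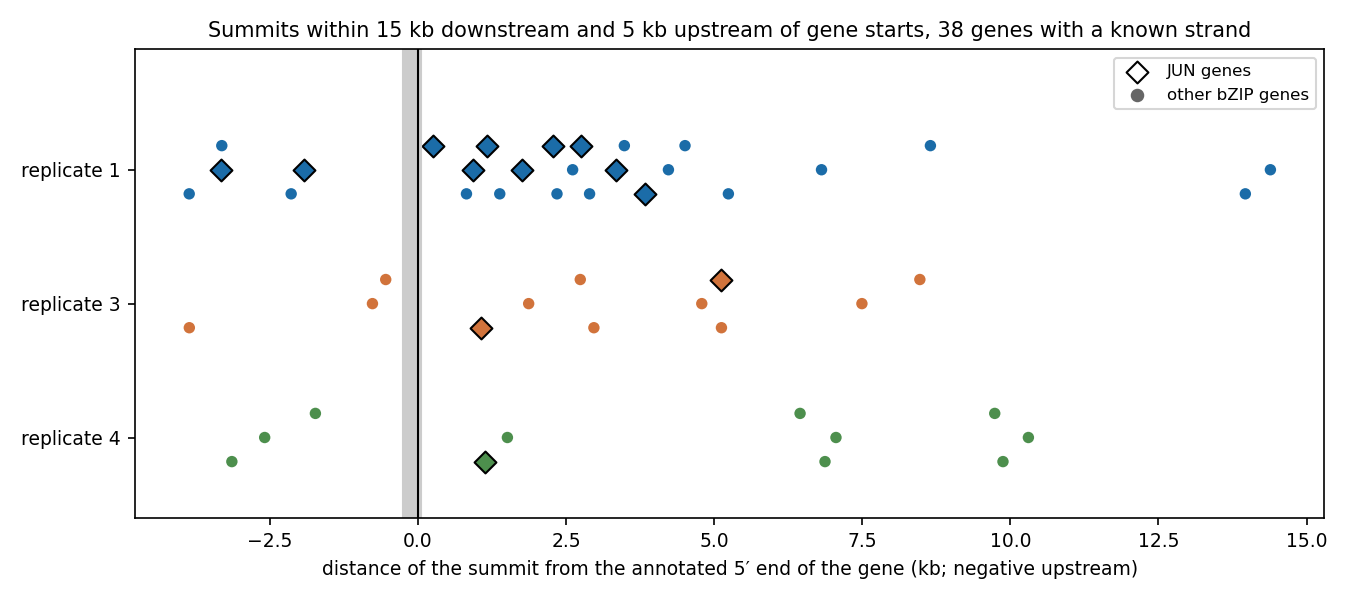
Distance in kb of summits from the annotated 5′ end of their gene, for the 38 bZIP genes whose strand was known, in the 3 anti-Flag libraries, with summits farther inside long genes beyond the plotted range. Diamonds are JUN genes, circles are other bZIP genes, points are spread vertically for legibility, and the grey band is the promoter window. No point falls in the band, and summits of Jun and Junb in all 3 rows stand close to 1 kb downstream.

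FOS genes encode the obligate partners of JUN in AP-1, and they were hit unevenly. Fos, the best known immediate-early gene of the group, and Fosl1 had no summit in any list. The summits nearest to Fos were 8.22, 137 and 12.9 kb away in replicates 1, 3 and 4. Of genes of like length, 11.2%, 5.6% and 7% were hit for Fos in these lists. For Fosl1 they were 17.6%, 9.4% and 9.8%, so having no summit was the usual outcome at both lengths. Fosb had 3, 0 and 1 summits, the highest, inside the gene in replicate 1, at 4.65-fold on 6 fragments (q = 0.129). Fosl2, which encodes Fra-2, had 2, 1 and 0. Its peaks in replicate 1 had folds of 4.27, 2140 bp before the 5′ end, and 3.32 inside the gene, and that in replicate 3 had 3.42. The other Fosb peaks had folds of 3.36 and 3.32 in replicate 1 and 2.70 in replicate 4. Over the 4 FOS genes, 4 of 12 gene and list pairs were hit, beside 1.44 from genes of like length. In replicate 1, 2 of the 500 genes of like length had at least the 3 summits of Fosb, and 16 had at least the 2 of Fosl2. At least 1 summit was held by 38 for Fosb in replicate 4 and by 48 for Fosl2 in replicate 3.

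Atf3, Jdp2 and the BATF genes encode AP-1 partners that often repress. Atf3, which is induced by many stresses, had 1 summit in each list, with folds of 3.34, 2.71 and 2.72 from 5 fragments each in replicates 1, 3 and 4. These summits lay 819, 4791 and 1510 bp after the 5′ end, and the closest pair was 691 bp apart without overlap. Jdp2 had 1, 1 and 0 summits, with folds of 3.55 and 3.68, both inside the gene. Batf, which acts in lymphocytes, had 0, 0 and 2, while Batf2 and Batf3 had none. This group had 2 of 5 genes hit in each list, beside 1.04, 0.552 and 0.858 from genes of like length in replicates 1, 3 and 4.

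CREB and ATF1 factors carry the response to cyclic AMP. Creb1 had 1, 1 and 2 summits, all inside its 71.8 kb. The folds were 4.27 in replicate 1, 2.99 in replicate 3, and 3.26 and 3.43 in replicate 4. Atf1 had 2 summits in replicate 4 alone, and Crem, of 71.4 kb, had none, although 40.2%, 22.4% and 45.2% of genes of its length were hit in replicates 1, 3 and 4. The related Creb5 had 3, 2 and 1 summits over 413 kb, where 75.2%, 60% and 83% of genes of like length were hit. Its folds ran from 3.32 to 3.55 in replicate 1, were 3.07 and 2.43 in replicate 3, and 2.49 in replicate 4. Atf2 had 2, 0 and 1 summits, with folds of 2.84 and 3.55 in replicate 1 and 3.49 in replicate 4. Atf7 had 2, 0 and 0, of which 1 lay inside the neighbour Tarbp2. The CREB1 group had 4 of 9 gene and list pairs hit, beside 2.84 from like length, and the ATF2 group 6 of 9, beside 4.75.

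Factors of the endoplasmic reticulum stress response showed no common pattern. Atf4 and Atf5 had no summit in any list. Their 0 of 6 gene and list pairs stood beside 0.498 from genes of like length, so the absence was near that background. Ddit3, which encodes the stress factor CHOP, had 0, 1 and 1 summits. The peak of replicate 3, inside the gene, had a fold of 2.76. The peak of replicate 4, with a fold of 3.81 from 6 fragments, lay 952 bp past its 3′ end and inside the neighbouring gene Mars1. Xbp1 had 1, 0 and 1 summits, both outside the gene, with folds of 2.79 (inside the neighbour Ccdc117) and 2.88. Atf6, a membrane-bound sensor of 164 kb, had 0, 3 and 2. Its folds were 2.68, 3.05 and 3.22 in replicate 3, and 2.99 and, 96 bp outside 1 gene end, 2.89 in replicate 4. In replicate 3, 10 of the 500 genes of its length had at least 3 summits, and in replicate 4, 173 had at least 2. Atf6b had 1 summit, in replicate 1. Of the 6 pairs of Atf6 and Atf6b 3 were hit, beside 2.03 from like length. Of the 3 pairs of Xbp1 2 were hit, beside 0.318.

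The CREB3 genes encode factors that are also held in membranes until they are cut. In replicates 1, 3 and 4, 3, 1 and 1 of the 4 were hit, beside 1.13, 0.808 and 1.12 from genes of like length, so replicates 3 and 4 were near that background. Creb3l2 had 1 summit in replicate 1, with a fold of 2.84, and 1 in replicate 4, with a fold of 3.35, 89 kb apart. Creb3l1 and Creb3l3, the liver factor CREBH, had 1 each in replicate 1. Creb3 had 1 in replicate 3. None of these lay within 1 kb of a gene end.

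C/EBP genes include the adipogenic members of the family. Counted with Ddit3, their relative, 1, 3 and 1 of 6 were hit in replicates 1, 3 and 4, beside 0.762, 0.34 and 0.494 from genes of like length. In replicate 1 Cebpa had a summit with a fold of 3.74 from 5 fragments (q = 0.416), 1381 bp after the 5′ end and inside this single-exon gene. In replicate 3 its summit had a fold of 2.62 and lay 4.86 kb past the 3′ end. Cebpb had 2 summits, both in replicate 3. The one at 768 bp before the 5′ end had a fold of 2.37 from 5 fragments (q = 1), at percentile 1.98 of its list. The other had a fold of 2.77 and lay past the 3′ end. In that list 1 of the 500 genes of like length had at least 2 summits. Cebpd, Cebpe and Cebpg had none in any list, where at most 16% of genes of like length were hit.

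MAF, NFE2 and BACH factors bind related elements as dimers. Maff, a small MAF with no activation domain, had 3, 1 and 0 summits, and in replicate 1 only 1 of 500 genes of like length had at least 3. The folds in replicate 1 were 2.84, 2.84 and 3.79, from 3, 3 and 5 fragments (q = 0.992, 0.992 and 0.408). The first of these peaks lay inside the gene. The others lay past its 3′ end, the last of them inside the neighbour Tmem184b. The peak in replicate 3 lay 544 bp before the 5′ end of Maff, with a fold of 2.77 from 7 fragments. In that list 53 of the 500 genes of like length had at least 1 summit. Mafk had 1 summit in replicate 3, and Mafg none, so 3 of 9 small MAF pairs were hit, beside 1.22 from like length. Mafa, an activator of the insulin gene in pancreatic beta cells, had 1 summit in replicate 1 with a fold of 4.77 from 6 fragments (q = 0.0977). Maf had none.

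Nfe2l2, the gene of NRF2, had 0, 1 and 1 summits, with folds of 2.54 and 2.70. The other NFE2 genes had 1 summit each, Nfe2 in replicate 1 and both Nfe2l1 and Nfe2l3 in replicate 4. All 3 lay outside the gene, that of Nfe2 inside Hnrnpa1 and that of Nfe2l3 inside Hnrnpa2b1. Of the 12 NFE2 pairs 5 were hit, beside 2.12 from like length. Bach1, a repressor that binds haem, had 1, 1 and 0 summits, with folds of 3.16 and 2.57. Bach2, a repressor in lymphocytes, had 5, 1 and 3 over 348 kb, with folds of 2.79 to 3.55 in replicate 1, 2.76 in replicate 3 and 2.56 to 3.38 in replicate 4. In replicate 1, 23 of the 500 genes of like length had at least 5, and 71.8% had at least 1. In replicate 3, 287 had at least 1, and in replicate 4, 149 had at least 3. Of the 6 pairs of Bach1 and Bach2 5 were hit, beside 2.81 from like length. The closest summits of Bach2 in different lists were 1153 bp apart, in replicates 3 and 4.

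PAR factors are driven by the circadian clock, and Nfil3 opposes them at the same sites. Dbp had 1 summit in each list, all outside the gene and inside neighbours. In replicate 1 it lay in Sphk2, with a fold of 4.97 from 6 fragments (q = 0.0977). In replicates 3 and 4 it lay in Car11, with folds of 2.37 and 2.60, and these summits were 718 bp apart. Hlf had 1, 2 and 0 summits, with folds of 3.08 in replicate 1 and 3.27 and 3.00 in replicate 3. Tef had 1, 0 and 0, and Nfil3 none. Of 12 pairs in this group 6 were hit, beside 2.27 from like length.

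Across the lists, 6 bZIP genes were hit in all 3 (12.5%, against 4.4% of all genes): Jun, Atf3, Creb1, Creb5, Bach2 and Dbp. Dbp is among them only through summits inside neighbouring genes. Those hit in at least 2 lists numbered 20 (41.7%, against 16.2%), and those hit in none 13 (27.1%, against 55.8%). Genes of like length gave 1.82, 6.75 and 28 for these counts. The 7 genes hit in replicates 1 and 3 alone were Junb, Fosl2, Jdp2, Cebpa, Maff, Bach1 and Hlf (14.6%, against 2.98% of all genes). Replicates 1 and 4 alone shared 4 (8.33%, against 5.94%), and replicates 3 and 4 alone shared 3 (6.25%, against 2.91%). For the 13 genes with no hit, the median distance to the nearest summit was 23.3, 55.1 and 26.3 kb in replicates 1, 3 and 4.

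Hits in several lists were mostly at different places in the same gene. Among the 20 genes hit in at least 2 lists, the closest summits of different lists were a median of 7.24 kb apart, from 108 bp in Junb to 89 kb in Creb3l2. They were under 2 kb apart in 5 genes: Junb, Jun, Atf3, Dbp and Bach2, those of Dbp lying in the neighbour Car11. These distances were not computed for other genes, so whether they differ from background is not known. In short genes such as Junb, the searched window itself keeps summits close.

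**Figure D4:**
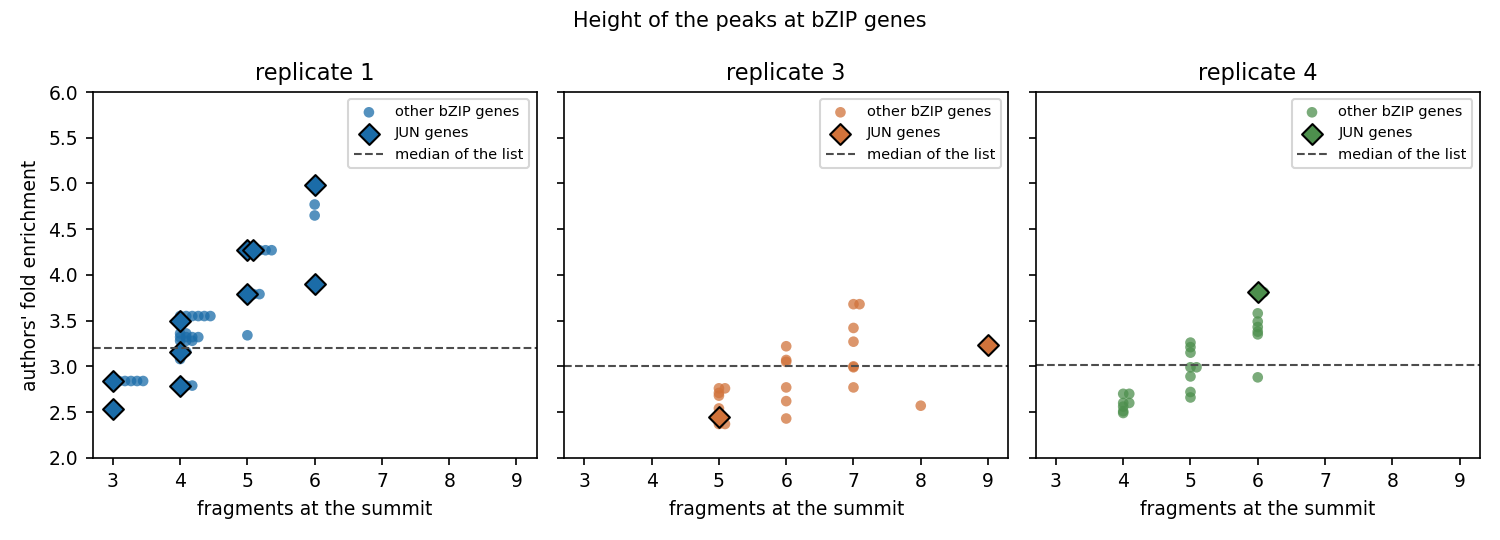
The authors' fold enrichment against the number of fragments at the summit for each peak at a bZIP gene, in the 3 anti-Flag libraries, with diamonds for JUN genes and the dashed line at the median fold of the list. Points that would coincide are moved slightly to the right. Most peaks in replicate 1 lie above the line, the highest at 4.98 in Junb, and most in replicates 3 and 4 lie below it.

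Peak height did not set the bZIP genes apart in the same way in each list. There were 45, 24 and 23 summits at bZIP genes in replicates 1, 3 and 4. Their median fold was 3.36, 2.76 and 2.99, against 3.20, 3.00 and 3.02 for the whole lists. At or above the list's median lay 32, 9 and 10 of them. The lowest q of any was 0.0977, shared by the peaks of Junb, Mafa and Dbp in replicate 1. So no single peak at a bZIP gene passed a q of 0.05, and with 3 to 9 fragments each, enrichment at a single gene could not be told from background with so few fragments.

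Of 92 summits, 84 were at genes of known strand. Of these, 57 were inside the gene, 16 downstream and 11 upstream. The share inside was 67.9%, while the genes made up 80.6% of the span searched, so the interior held no more than its share of length. Of the 13 end summits on genes of known strand, 5 were within 1 kb of the 5′ end and 8 were at the other end. Summits at gene ends made up 20%, 16.7% and 8.7% of the bZIP summits in replicates 1, 3 and 4, against 9.87%, 6.62% and 5.38% over all genes. The shares over all genes were not matched for length, and bZIP genes were shorter. Of the 9 end summits in replicate 1, Junb held 4 and Jun 2. Junb is 1.84 kb long, so any summit inside it counts as an end summit. The body of another protein-coding gene held 9 of the 92, so these cannot be assigned to the bZIP gene alone.

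Genes that work with bZIP factors were counted from a list of 49. Replicate 1 hit 24, replicate 3 hit 13 and replicate 4 hit 13, beside 14.7, 9.51 and 14.3 from genes of like length. The 16 upstream kinases and stress sensors had 6, 2 and 4 hits (5.53, 3.71 and 5.79 from like length), and the 10 coactivators and partners had 7, 4 and 2 (4.18, 3.00 and 4.47). The 20 target genes had 10, 7 and 7, beside 4.51, 2.60 and 3.83. Among targets, Nr4a1, an orphan nuclear receptor gene induced by cyclic AMP, had 2, 2 and 1 summits. Ppargc1a, the PGC-1α coactivator gene, had 4, 1 and 3. Neither gene was set beside genes of like length on its own, and longer genes hold more summits. Of 3 further bZIP genes, Nrl, Creb3l4 and Crebzf, replicate 1 hit Creb3l4 and the other lists hit none.

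At the ends of these 49 genes, replicate 1 had summits at 7, replicate 3 at 1 and replicate 4 at 1, beside 1.87, 0.746 and 0.982 from genes of like length. The counts in replicates 3 and 4 were thus near that background. The 7 were the kinase gene Mapk9, the CREB coactivator gene Crtc2, Pparg, the master regulator gene of adipocytes, and the targets Dusp1, Chac1, Herpud1 and Per1. Dusp1, a phosphatase gene of MAP kinases, had a fold of 5.69 from 7 fragments (q = 0.0132), and the other 6 had folds of 2.62 to 3.50. Replicate 3 had Gclm, a glutathione synthesis gene, with a fold of 3.02. Replicate 4 had Ern1, the sensor kinase gene of the endoplasmic reticulum, with a fold of 2.60.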

How the data were processed

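Peak lists of 3 anti-Flag ChIP libraries were used, 1 per library and not pooled. Per the submitters' processing notes, the tools were fastp 0.19.11, BWA 0.7.12 and MACS2 2.1.0, on build mm10. Whether peaks were called against input: not given in the sources used here. Each deposited peak has the authors' fold ratio, −log10 p-value, −log10 q-value and an integer score equal to the −log10 p times 10, rounded down.

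Where an interval was listed more than once, its most significant summit was kept. Fragments at a summit were solved from fold and p (fold being fragments plus 1 over background plus 1, and p a Poisson tail), and 100% of peaks matched within 0.001 on the log10 scale. Read totals are not given, so depth is known only through these fragments. Gene positions came from RefSeq GRCm38.p6, the build named mm10, and strand from its promoter table, which covers 38 of the 48 genes. Of 48 symbols, 48 matched.

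Summits were counted in the gene with 5 kb either side and within 1 kb of either end, and peaks overlapped when they shared at least 1 bp. The members, subfamilies and the list of 49 partner and target genes were chosen with earlier results of these data known. Genes with a summit at an end, in at least 2 lists, or with overlapping peaks were given with their folds in each list, and the others mainly as counts. Partner and target genes were named where a summit lay at an end. Nr4a1 and Ppargc1a, hit in every list, and the 3 further bZIP genes were named after their values were seen. An item withheld from the gene lists is not reported here. No test was made, since 1 group was measured. Python 3.11.15, NumPy 2.4.6, pandas 2.3.3, SciPy 1.17.1 and matplotlib 3.10.9 were used, and counting was checked on simulated data.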

Additional observations from a re-analysis of the deposited data

How the results depend on the processing

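No paired analysis was possible because the inputs that share the replicate numbers were not analysed here and no test was made. With a q of at most 0.05, 0 bZIP genes had a summit in the 5 kb window or at a gene end in each of the 3 lists. Only 40, 26 and 67 intervals of the whole lists in replicates 1, 3 and 4 passed that limit. With only peaks at or above the list's median fold, the genes hit fell to 7 in replicate 3 and 9 in replicate 4, the genes with an end summit to 1 in each of these, those hit in at least 2 lists to 8 and those in all 3 to 0, while those hit in none numbered 20. The ratio to genes of like length was then 3.03 in replicate 1 and 1.73 in replicate 3. With gene bodies alone, replicate 4 hit 11 and at least 2 lists hit 13. A window of 0.5 kb left 2, 1 and 1 genes with an end summit in replicates 1, 3 and 4, and one of 3 kb gave 11, 10 and 8. Apart from the ratios, no share over all genes or genes of like length stands beside the counts in this section under the changed settings. They show how the bZIP counts moved and not whether they exceed background.

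Leaving out 1 replicate gave 9 to 13 genes hit in both remaining lists, against 20 in at least 2 of 3 lists and 6 in all 3, where asking for fewer lists changes the count by construction. Genes hit in none were then 16 to 21, highest without replicate 1, and the mean of genes hit was 18 to 22. Genes with overlapping peaks were 0 without replicate 1, 1 without replicate 3 (Jun) and 1 without replicate 4 (Junb). At 50% reciprocal overlap there were 0. The ratio to genes of like length stayed above 1 in all 15 alternatives computed for it. These left out a q of at most 0.05, where 0 bZIP genes were hit in each list. They also left out a window of 10 kb and the removal of summits inside another gene. Of 68 alternatives in all, 35 kept a count within 1.5 times or a value within 1 SD of the lists. Leaving out summits inside another gene, chosen after seeing the data like the comparison on gene density, gave 22, 18 and 14 genes hit in replicates 1, 3 and 4.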
